A study of Mus musculus with 8 samples.

Results

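The genes described here are the 4 Argonautes and 6 other genes that make or use small RNAs, read in mouse aortic smooth muscle cells after a synthetic small RNA was added. They were chosen by name: every probe was taken whose gene symbol in the array table was Eif2c1, Eif2c2, Eif2c3, Eif2c4, Tnrc6a, Dgcr8, Xpo5, Dicer1, Tarbp2 or Prkra. This gave 16 probes for 10 genes, of 25697 probes with 18138 gene symbols. The probes were taken by symbol, without use of a measured value, but the genes were chosen with earlier results of these data known.

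Primary mouse aortic smooth muscle cells were grown out of explants of several aortas and kept in medium with charcoal-treated serum. They were transfected with RNAiMAX at a final concentration of 5 nM, either with a scrambled oligo (control) or with the moR-21 mimetic, and RNA was taken after 48 h. There were 3 control samples and 3 moR-21 samples, and control 1 and moR-21 3 each had a pair of arrays, A and B, so that 8 arrays stood for 6 samples. The labels do not say whether the samples of a treatment were separate cultures, and p-values measure only the spread between these samples, which may be technical.

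MicroRNAs are cut from hairpins in longer transcripts. In the nucleus the Microprocessor, built of Drosha and Dgcr8, releases the hairpin, exportin 5 carries it to the cytoplasm, and Dicer trims it to a short duplex. An Argonaute protein keeps a single strand of this duplex as its guide to target mRNAs and recruits GW182 proteins, which bring in the enzymes that shorten the poly(A) tail. A microRNA-offset RNA, or moR, is the piece of the same hairpin transcript that lies next to the microRNA, and moR-21 is that of the hairpin of miR-21. The comparison asks whether the cells' own small RNA machinery changed at the RNA level when moR-21 was raised.

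The neighbouring RNAs are shown to place moR-21 on its hairpin, with sequences from RefSeq (GRCm38.p6, minus strand of chromosome 11, hairpin chr11:86584067-86584158 of 92 bases). The first line is the 17 bases that precede the microRNA in the hairpin, at chr11:86584142-86584158, and its capitals mark the 5 bases shared by the first 3 seed windows that the study examined for moR-21. The second line is the microRNA, at chr11:86584120-86584141, with its seed, bases 2 to 8, in capitals. The stretch starts where the annotated hairpin starts, which need not be where moR-21 starts, so its base numbers are not those of moR-21. The exact sequence of the mimetic was not analysed here.
Stretch before miR-21a-5p: uGUACCaccuugucgga
mmu-miR-21a-5p: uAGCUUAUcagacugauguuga

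The arrays were alike in brightness, with a median intensity between 102 and 109 and between 10285 and 10512 probes detected (detection p-value under 0.01) on each. The description field of the labels speaks of AoECs, whereas source and cell type name aortic smooth muscle cells. Of 7 endothelial markers 6, among them Pecam1, Cdh5 and Tek, were detected on no array. Only Vwf was detected on all 8, with a dim log2 signal between 6.87 and 6.98. Of 7 smooth muscle markers Acta2 and Smtn were detected on all arrays, and Myh11, Cnn1 and Myocd on none. Tagln was detected on 4 arrays and Lmod1 on 3, both dim, with log2 signals of at most 6.98 and 6.88. Of 6 macrophage markers only Cd14 was detected on all arrays, and of the 4 mesothelial markers on the array Upk3b and Krt19 were. The summed intensity of the smooth muscle markers was between 10090 and 10455 in control and between 12873 and 13715 in moR-21 samples, and that of the mesothelial markers was between 957 and 971 and between 593 and 605. That of the endothelial markers was between 719 and 730 in control and between 732 and 748 in moR-21 samples, and that of the macrophage markers between 1861 and 1925 and between 1641 and 1666. These sums hold the background of undetected markers and lean on the brightest ones. On the log2 scale Acta2 differed by 0.40. Of the 4 tested smooth muscle markers 3 were higher, Acta2 and the dim Tagln (0.20) and Lmod1 (0.05), and Smtn was lower at −0.05. Upk3b differed by −1.24 and Krt19 by −0.13 (limma adjusted p = 0.116). The part of these shifts in the values below was not tested. In bulk RNA a smaller number of cells of a type and less RNA per cell cannot be told apart.

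Argonaute RNA lay at the limit of what these arrays could measure. None of the 8 Argonaute probes was detected on all 8 arrays, and the raw intensities of all 8 probes lay between 91.3 and 124 on arrays whose median was between 102 and 109. Among all 16 probes of the 10 genes, 8 were detected on every array and 6 on none, where over all 25697 probes 36.6% were detected on every array and 54.7% on none. Every Argonaute value below is therefore a signal near background, which says little about the amount of RNA.

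**Figure D1:**
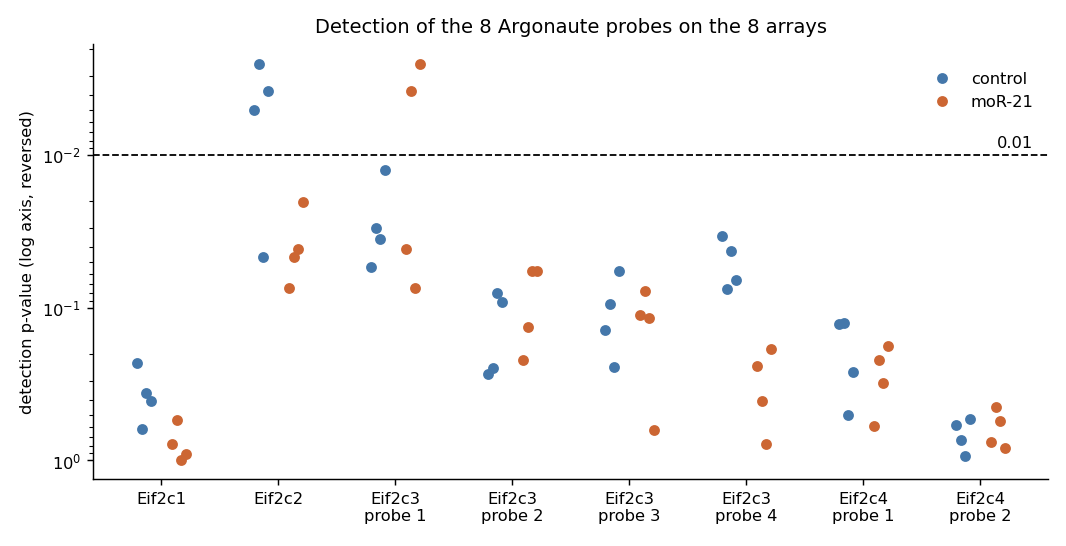
Detection p-value (log axis, reversed, so that brighter probes are higher) of each of the 8 Argonaute probes on each of the 4 control and 4 moR-21 arrays; the dashed line marks 0.01. The Eif2c2 probe passed the line on 3 control arrays and 0 moR-21 arrays, 1 Eif2c3 probe passed it on 2 moR-21 arrays, and no other Argonaute probe passed it on any array.

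Eif2c2 encodes Ago2, the Argonaute that can cut its target, at chr15:73101625-73184947 (GRCm38.p6, from the RefSeq annotation). Its only probe had detection p-values of 0.00501 on control 1A, 0.00251 on control 1B, 0.0464 on control 2 and 0.00376 on control 3. On the moR-21 arrays the detection p-values were 0.0739 for sample 1, 0.0464 for sample 2, 0.0414 for array 3A and 0.0201 for array 3B. It was thus detected on 3 of 4 control arrays and on 0 of 4 moR-21 arrays.

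The log2 signal of Eif2c2, after quantile normalization of the 8 arrays and averaging of the arrays of a sample, was 6.86, 6.75 and 6.88 in controls 1 to 3 and 6.73, 6.75 and 6.78 in moR-21 samples 1 to 3. Controls 1 and 3 lay above all moR-21 samples, control 2 lay among them, and the groups overlapped. No moR-21 array measured it above background, so the mean of the controls was set against a bound in place of the moR-21 signal. The bound was made from the dimmest detected signal of each moR-21 array, or the probe's own signal where that was higher. The mean of the controls was 1.005 times this bound, which hardly differs from no change (limma adjusted p = 0.231 for the measured difference). Control 2, undetected but part of that mean, lay below the bound at 6.75, so no smallest fall can be stated. The probe entered the comparison through control arrays alone. The measured difference was −0.08 on the log2 scale (standard error 0.049, 95% confidence interval −0.19 to 0.02). With normexp background correction, which stretches differences between dim probes, it was −0.30 (standard error 0.124, interval −0.58 to −0.02, limma adjusted p = 0.103).

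The other Argonautes, Ago1, Ago3 and Ago4, lie side by side on chromosome 4, where Eif2c3, Eif2c1 and Eif2c4 occupy chr4:126326994-126533586 with no other protein-coding gene between them. Their products also bind small RNA guides, but Ago2 is the Argonaute best known for cutting targets. Eif2c1, with 1 probe, had detection p-values between 0.228 and 0.987 and was detected on 0 of 8 arrays. Eif2c4, with 2 probes, was also detected on 0 of 8 arrays. No difference between the treatments is given for either gene.

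Eif2c3 had 4 probes, of which 3 were detected on no array. The probe that was detected passed on moR-21 sample 2 (detection p-value 0.00376) and on moR-21 array 3B (0.00251), but not on array 3A of the same sample (0.0739) and on no control array. Its log2 signal was 6.76, 6.78 and 6.80 in the controls and 6.76, 6.87 and 6.80 in moR-21 samples 1 to 3. Only moR-21 sample 2 stood above the controls, and the groups overlapped. The difference was 0.03 (standard error 0.047, interval −0.07 to 0.13, limma adjusted p = 0.720). The probe entered the comparison through moR-21 arrays alone, so this difference and its p-value are a description. Since no control array measured the gene above background, no fold is given. Arrays 3A and 3B, which carry the same sample number, differed by 0.13, which is more than the difference between the treatments.

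Over the 10 genes, 8 were measurable on at least 1 array and entered the comparison, and 6 of these were detected on all 8 arrays. Eif2c2 and Eif2c3 each entered through arrays of a single treatment, and the counts and medians below include them. At a fold change over 1.3 and a limma adjusted p under 0.002, the study's cutoffs, 0 of the 8 genes were called lower and 0 higher. Over all 8727 genes tested in the same way 4.37% were called lower and 3.40% higher. At an unadjusted p under 0.05 limma passed 1 of the 8 lower, Dicer1, and 1 higher, Prkra, where 21.1% of all genes were lower and 23.4% higher. The same genes passed at an adjusted p under 0.05 with no demand on the fold, where 17.3% of all genes were lower and 18.8% higher. The samples of the treatments did not overlap for 1 of the 8 genes, Dicer1, and for 46.3% of all tested genes. The median log2 fold change of the 8 genes was 0.00 and their median absolute log2 fold change 0.07, beside 0.01 and 0.10 over all tested genes.

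As a scale for these sizes, Txndc5, an endoplasmic reticulum protein disulfide isomerase that the study examined as a target of moR-21, fell by 2.02 on the log2 scale (standard error 0.055, limma adjusted p = 1.75e-11). Its control samples lay between 10.68 and 10.74 and its moR-21 samples between 8.61 and 8.79. The largest absolute difference among the 8 genes was 0.23. Background left in the intensities understates changes of dim probes, as several of the 8 were, so the sizes are not on an equal footing.

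**Figure D2:**
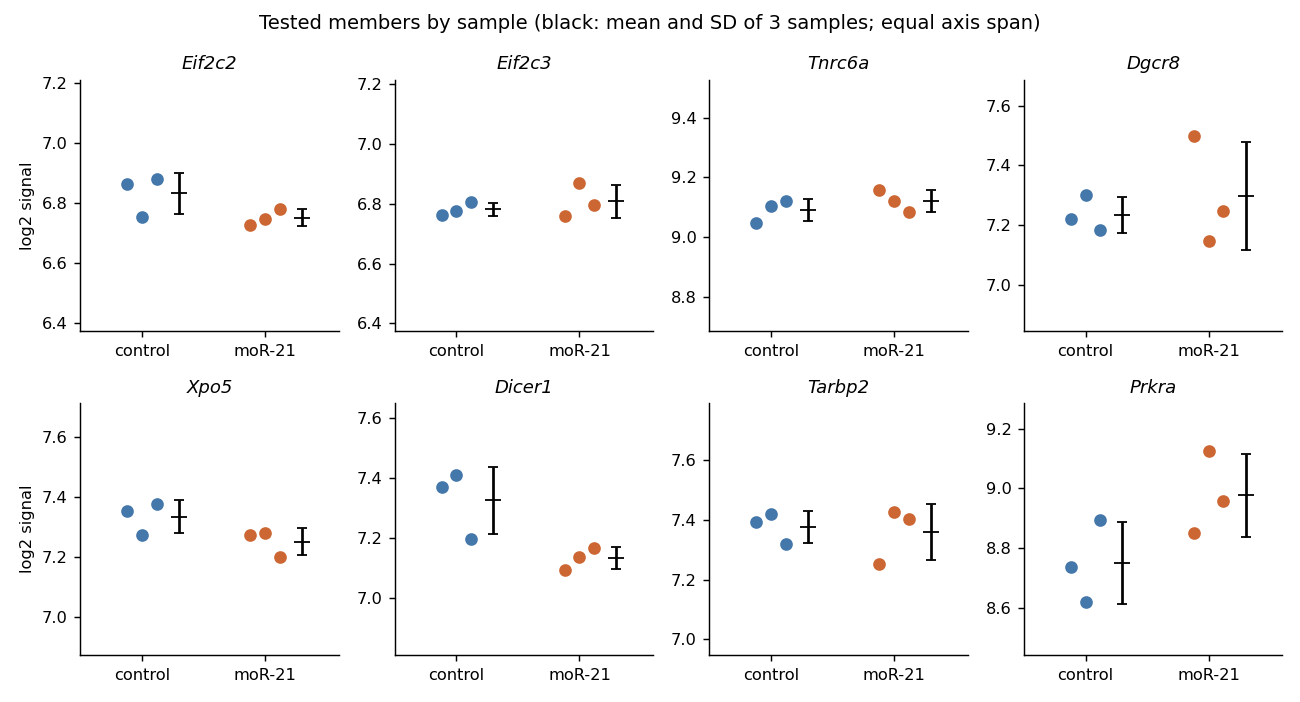
Quantile-normalized log2 signal of the 8 tested genes in the 3 control and 3 moR-21 samples, each gene at its brightest detected probe, with the mean and SD of each group in black; the panels share an axis span but not an origin, since levels cannot be compared between probes. Only the Dicer1 samples separate by treatment, with control 3 at 7.20 close to moR-21 3 at 7.17, and moR-21 1 stands above all other samples of Dgcr8 at 7.50.

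Tnrc6a encodes a GW182 protein, the scaffold between Argonaute and the deadenylases, and lies at chr7:123031101-123195296. At its brighter probe the log2 signal was 9.05, 9.11 and 9.12 in the controls and 9.16, 9.12 and 9.08 in the moR-21 samples. The groups overlapped, and the difference was 0.03 (standard error 0.046, interval −0.07 to 0.13, limma adjusted p = 0.686). In percent of the normalized intensity this interval runs from −4.75% to 9.28%.

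The dimmer Tnrc6a probe, detected on all arrays as well, gave 8.76, 8.82 and 8.81 in the controls and 9.04, 8.93 and 8.85 in the moR-21 samples. Here all moR-21 samples lay above all controls, moR-21 3 by little. The difference was 0.14 (standard error 0.054, interval 0.02 to 0.26), with a limma adjusted p of 0.0611. The probes of this gene thus gave different sizes, and neither was called.

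Dgcr8, the RNA-binding partner of Drosha in the Microprocessor, lies at chr16:18253948-18289251. Its log2 signal was 7.22, 7.30 and 7.18 in the controls and 7.50, 7.15 and 7.25 in the moR-21 samples. A single sample, moR-21 1, was high, and the other moR-21 samples lay within or below the range of the controls. The difference was 0.06 (standard error 0.073, interval −0.10 to 0.22, limma adjusted p = 0.578), and without moR-21 1 it was −0.04.

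Xpo5 encodes exportin 5, which carries precursor hairpins out of the nucleus, and lies at chr17:46202811-46243598. Its log2 signal was 7.35, 7.27 and 7.38 in the controls and 7.27, 7.28 and 7.20 in the moR-21 samples. Control 2 overlapped the moR-21 samples. The difference was −0.08 (standard error 0.048, interval −0.19 to 0.02, limma adjusted p = 0.216). Array A of control 1 gave 7.47 and its array B 7.24, so that arrays of the same sample differed by more than the treatments. The median absolute difference of this array pair over all tested probes was 0.06. The sample titles name these arrays replicate A and B, without saying whether the RNA was the same. With array A alone of the repeated samples the difference was −0.13 and with array B alone −0.04, and with normexp background correction it was −0.17.

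Dicer1, the ribonuclease that cuts precursor hairpins into duplexes, lies at chr12:104687740-104751968. Its log2 signal was 7.37, 7.41 and 7.20 in the controls and 7.09, 7.14 and 7.17 in the moR-21 samples. Controls 1 and 2 lay well above every moR-21 sample, and control 3 stood only just above the highest of them. The difference was −0.19 (standard error 0.057, interval −0.31 to −0.07), a normalized intensity 0.875 times that of the controls, with a limma adjusted p of 0.0177. Dicer1 was thus lower at the looser cutoff of 0.05 and not called at the study's cutoffs.

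The size of the Dicer1 difference turned on the handling of background. Its raw intensity was between 138 and 183, not far above the array medians, and with normexp background correction the difference was −0.42 (standard error 0.118, interval −0.69 to −0.16, limma adjusted p = 0.0249). Over all tested genes the median absolute log2 fold change was 0.17 with this correction and 0.10 without it. Leaving out control 3 gave −0.26 with an adjusted p of 0.00201 by limma, and leaving out control 2 gave −0.15 with an adjusted p of 0.0863. It also missed 0.05 without control 1 (−0.17, limma adjusted p = 0.0756) and without moR-21 1 (−0.17, limma adjusted p = 0.0598).

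Tarbp2 encodes TRBP, a double-stranded RNA-binding partner of Dicer, and lies at chr15:102516077-102523676. Its brighter probe read 7.39, 7.42 and 7.32 in the controls and 7.25, 7.42 and 7.40 in the moR-21 samples on the log2 scale. The sample moR-21 1 was the lowest and the groups overlapped, and the difference was −0.02 (standard error 0.055, interval −0.14 to 0.10, limma adjusted p = 0.851). The dimmer probe read 7.10, 7.25 and 7.06 in the controls and 7.17, 7.13 and 7.10 in the moR-21 samples, and its difference was 0.00. Both probes were detected on all arrays. Across the 6 samples their values had a Pearson r of 0.17, whereas those of the Tnrc6a probes had 0.84.

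Prkra encodes PACT, the other double-stranded RNA-binding partner of Dicer, which also activates the kinase PKR, and lies at chr2:76609215-76648220. Its log2 signal was 8.74, 8.62 and 8.89 in the controls and 8.85, 9.12 and 8.96 in the moR-21 samples. Control 3 lay above moR-21 1, and the other samples kept to the side of their treatment. The difference was 0.23 (standard error 0.074, interval 0.07 to 0.39), a fold of 1.17, with a limma adjusted p of 0.0304. It passed the looser cutoff, and it no longer did with normexp background correction (0.28, limma adjusted p = 0.0968), nor without moR-21 2 (0.15, limma adjusted p = 0.138) or without control 2 (0.16, limma adjusted p = 0.147). Leaving out control 1 (0.22, limma adjusted p = 0.0837) or moR-21 3 (0.24, limma adjusted p = 0.0602) also took it past 0.05.

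Set side by side, the genes that act with Dicer did not share a direction: Dicer1 was lower and Prkra higher at the looser cutoff, and Tarbp2 was at −0.02 and 0.00 at its probes. With normexp background correction the differences of Eif2c3 and Dgcr8 were 0.10 and 0.12, and the intervals of both still held 0.

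**Figure D3:**
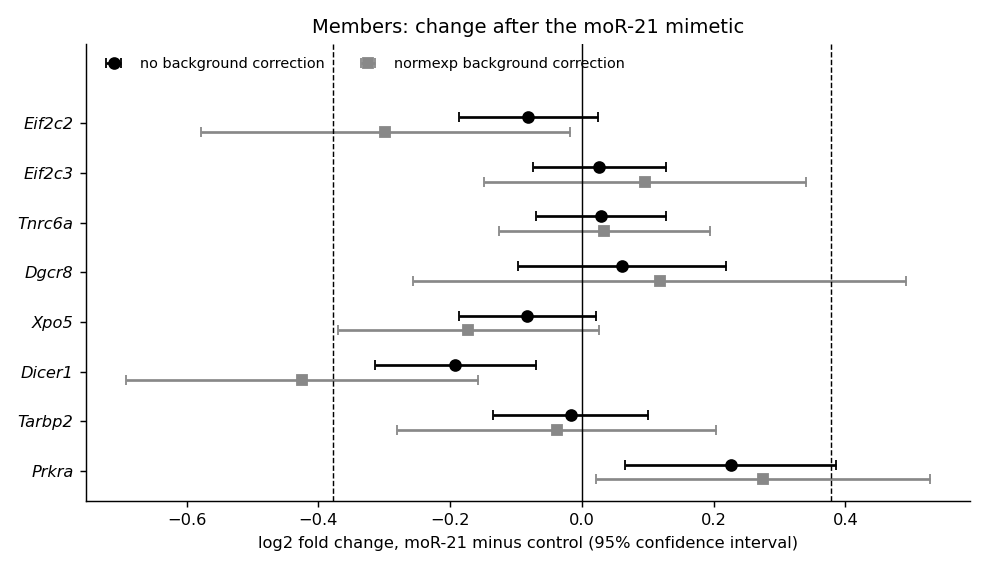
Difference in log2 signal between moR-21 and control samples (3 and 3) for the 8 tested genes, with 95% confidence intervals from limma, without background correction (circles) and with normexp background correction (squares); dashed lines mark a fold of 1.3. Without the correction all estimates lie between −0.19 and 0.23, inside the dashed lines, and with it Dicer1 moves to −0.42 and Eif2c2 to −0.30 with wider intervals.

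The genes whose values across the 6 samples were most like those of Eif2c2 were Pcsk7, a proprotein convertase gene, with a Pearson r of 0.984, Itgbl1 with 0.973 and Gsdmdc1 with 0.971, out of 8726 genes compared. All 6 points share the treatment groups and the joint normalization, so that these correlations are a description. None of the 3 genes is among the small RNA genes.

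Other genes of the pathway were read from a list of 63 genes. The array held probes for 56 of them, and 45 passed detection and were tested, each at its brightest detected probe. Of these, 31 had a lower mean in moR-21 samples and 14 a higher one, where 48.2% of all genes tested had a lower mean. Their median log2 fold change was −0.06, where it was 0.01 over all genes tested. At the study's cutoffs 1 was called lower, Pabpc1, and 0 higher, beside 4.37% and 3.40% of all genes. At an adjusted p under 0.05 by limma, 15 of 45 were lower and 4 of 45 higher, beside 17.3% and 18.8% of all genes. Without adjustment, 17 of 45 lower and 4 of 45 higher genes passed a p of 0.05, beside 21.1% and 23.4% of all genes. The samples of the treatments did not overlap for 21 of the 45, and for 46.3% of all genes.

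Pabpc1 encodes the cytoplasmic poly(A)-binding protein that coats mRNA tails and is contacted by GW182 proteins. Its brightest probe read 10.20, 10.55 and 10.60 on the log2 scale in the controls and 9.80, 9.64 and 10.02 in the moR-21 samples. Every moR-21 sample lay below every control, and the fall was 0.63 on the log2 scale (difference −0.63, standard error 0.099, interval −0.85 to −0.42, limma adjusted p = 2.14e-04). Its dimmer probes gave −0.35 (limma adjusted p = 4.68e-05) and −0.22 (limma adjusted p = 0.0359), in the same direction. When the median over its detected probes was taken in place of the brightest probe, when no detection filter was set, or when control 2 was left out, Pabpc1 was no longer called. It belongs to a family of closely related genes and processed copies, which its probes may not tell apart.

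By step of the pathway, the counts can be read against the 48.2% of all genes with a lower mean, and the 17.3% lower and 18.8% higher at an adjusted p under 0.05. They are small, take each gene at its brightest detected probe, and were not tested by step. Dimmer probes of some genes went the other way, in both directions. Eif4e2, counted as lower at −0.06, had 0.15 at its other probe (limma adjusted p = 0.0454). Adar, counted as lower at −0.03, had 0.08 and −0.17 at its dimmer probes. Cnot2 and Cnot4, counted as lower, also had a dimmer probe that was higher. Dcps, counted as higher at 0.05, had −0.02 at its other probe. Of 12 tested deadenylation genes 10 had a lower mean, and 5 were lower at an adjusted p under 0.05 by limma, beside 1 higher. Among the 5 was Cnot6, detected on only 3 arrays. Of 11 tested genes that load Argonaute or partner with it 7 had a lower mean, with 3 lower and 1 higher at this cutoff. All 4 tested genes of dicing, editing and tailing had a lower mean, 2 of them at this cutoff, as did 5 of 9 of decapping and decay, 2 of them at this cutoff. The 8 genes of the Microprocessor and its primary transcript divided, with 3 lower and 2 higher at this cutoff. Ran, the export GTPase, had a log2 fold change of 0.01.

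After Pabpc1 the largest fall in the list was that of Adarb1, an RNA-editing adenosine deaminase. Its log2 signal was 9.30, 9.35 and 9.32 in the controls and 8.96, 8.96 and 9.04 in the moR-21 samples, with the groups well apart. The difference was −0.33 (standard error 0.046, limma adjusted p = 7.56e-05), short of the fold cutoff, while its dimmer probes gave −0.07 and −0.10 with limma adjusted p of 0.285 and 0.130.

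The largest rises were those of Tob2, an antiproliferative protein that binds the deadenylase complex, and of Ncbp1, the large subunit of the nuclear cap-binding complex. Tob2 read 7.700, 7.656 and 7.706 in the controls and 7.997, 7.982 and 7.878 in the moR-21 samples, a difference of 0.27 (standard error 0.048, limma adjusted p = 7.13e-04). Ncbp1, listed on the array as AU014645, differed by 0.20 (standard error 0.055, limma adjusted p = 0.0111). Neither reached the fold cutoff.

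A few more genes are named because of their place beside the 10, chosen after their values were seen. Drosha, the nuclease partner of Dgcr8 (Rnasen on the array), had a log2 fold change of 0.00 (interval −0.10 to 0.10, limma adjusted p = 0.995) at its brighter probe. Its dimmer probe, also detected on all arrays, gave −0.17 (standard error 0.052, limma adjusted p = 0.0204), so that the probes of Drosha disagreed. Tnrc6c, a paralog of Tnrc6a, read 9.42, 9.39 and 9.41 in the controls and 9.08, 9.12 and 9.10 in the moR-21 samples, so that the groups stood far apart. Its difference was −0.31 (standard error 0.044, limma adjusted p = 9.90e-05), and that of the third paralog, Tnrc6b, detected on 3 arrays, was −0.08 (limma adjusted p = 0.172). Ncbp2, the small subunit of the cap-binding complex whose large subunit is Ncbp1, had a difference of −0.30 (standard error 0.052, limma adjusted p = 4.71e-04), opposite in sign to Ncbp1.

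The deadenylation and loading genes, also named after their values were seen, varied among themselves. Cnot7, a catalytic subunit of the CCR4-NOT deadenylase, read 8.83, 8.81 and 8.78 in the controls and 8.58, 8.52 and 8.45 in the moR-21 samples, a difference of −0.29 (limma adjusted p = 3.57e-04). Pan2, the catalytic subunit of the other deadenylase (Usp52 on the array), had −0.29 at its brightest probe (limma adjusted p = 7.27e-04) but −0.07 and 0.02 at its dimmer probes. Cnot6 at −0.17, detected on only 3 arrays, and Cnot10 at −0.12, further subunits of CCR4-NOT, passed an adjusted p of 0.05 by limma. Apart from Pabpc1 and Tob2, given above, the other tested deadenylation genes did not. At their brightest probes Cnot2 was at −0.12, Tob1 at −0.08, Cnot3 at −0.06, Cnot4 at −0.05, Cnot6l at −0.03 and Rqcd1 at 0.10.

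Among the chaperones that assist the loading of Argonaute, Fkbp5 and Fkbp4, co-chaperones of Hsp90, had differences of −0.27 (limma adjusted p = 2.59e-04) and −0.23 (limma adjusted p = 0.00260). Hsp90ab1, which encodes an Hsp90 itself, had 0.16 at its brightest probe (limma adjusted p = 0.0162), opposite in sign. Its dimmer probes gave 0.16 and 0.08, with limma adjusted p of 0.0815 and 0.397. Hspa8 at −0.04 and Ptges3 at −0.03, a further chaperone and a co-chaperone, did not pass. None of the genes of these deadenylation and loading groups other than Pabpc1 reached the fold cutoff.

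**Figure D4:**
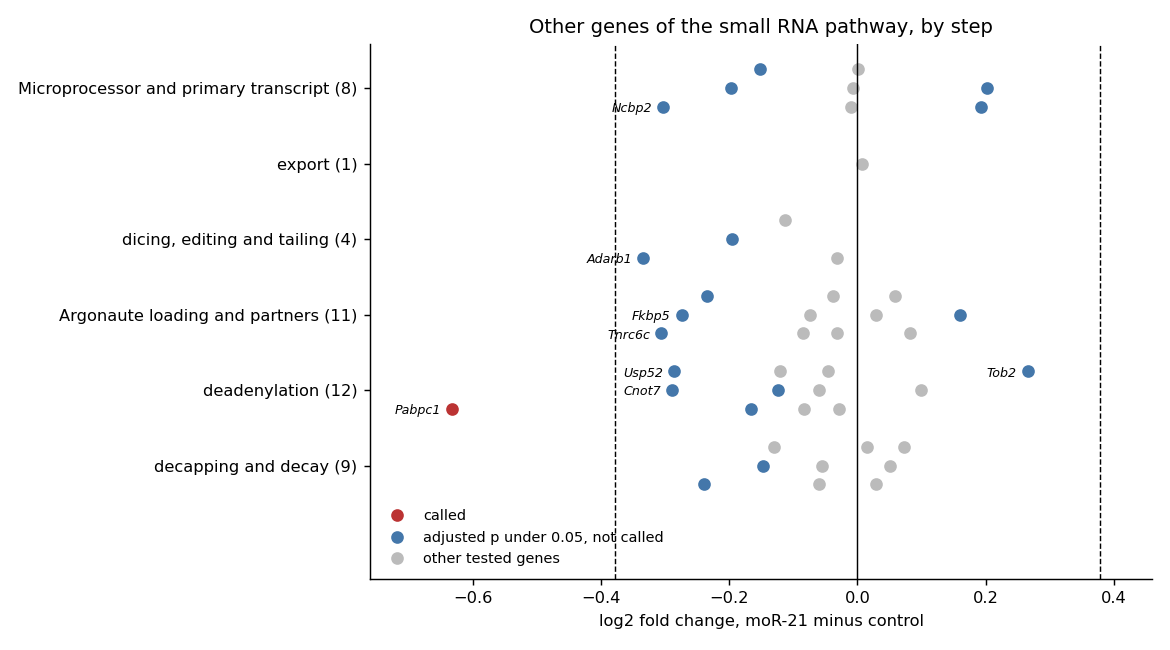
Difference in log2 signal between moR-21 and control samples for the 45 tested genes of the pathway list, by step (number of tested genes in brackets), without background correction; points are offset vertically for legibility, dashed lines mark a fold of 1.3 and names are given for genes called or with a limma adjusted p under 0.001. Each gene is shown at its brightest detected probe. Pabpc1 at −0.63 is the only gene beyond a dashed line, and 31 of the 45 points lie to the left of 0.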

How the data were processed

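The authors deposited, for 8 Illumina mouse beadchips, the non-normalized intensity of each probe and its detection p-value. The methods name MouseWG-6 and MouseRef-8 designs, Beadstudio, lumi and limma; a background correction and tool versions are not given in the sources used here. All columns were matched to samples by name (0 left without one).

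The 8 arrays were then normalized by quantiles in a single step, starting from the deposited intensities without background correction, put on the log2 scale, and averaged within each sample. The fit with limma (lmFit and eBayes, no covariate) compared moR-21 with control over 11651 probes, those with a deposited detection p-value below 0.01 on 1 array or more, with Benjamini-Hochberg adjustment over them. Genes, each read at its brightest detected probe, were called where the adjusted p was below 0.002 and the fold above 1.3. Fold changes are on intensities that still hold background, which understates changes of dim probes. The number of samples limits the precision.

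The genes, the pathway and marker lists and the tests were chosen with earlier results of these data known. By rule, the text names the 10 genes, called genes of the pathway list or else its 2 largest falls and rises, Txndc5, and the 3 genes most correlated with Eif2c2. Its other pathway genes were named after their values were seen. Alternatives were normexp (offset 16), median scaling, cyclic loess, other detection filters, repeat arrays singly or by duplicateCorrelation, eBayes with trend and robust, a replicate block, each sample left out, other cutoffs, and the median over probes. Scripts were first tested on simulated data. Slide numbers and probe sequences were not used here. limma was version 3.58.1 (in R 4.3.3), and tables and plots used pandas 2.3.3, numpy 2.4.6 and matplotlib 3.10.9 in Python 3.11.15.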

Additional observations from a re-analysis of the deposited data

How the results depend on the processing

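Under the study's cutoffs, 0 of the 8 tested small RNA genes were called in either direction under every alternative tried, and Eif2c2 and Eif2c3 were not tested where detection on all arrays of a treatment was required. At an adjusted p under 0.05 with no fold cutoff 1 was lower and 1 higher, and of the pathway genes 15 were lower and 4 higher. The pathway genes called lower numbered 3 with normexp background correction, 0 without a detection filter, 0 with the median over detected probes, and between 0 (without control 2) and 1 when each sample was left out. The sign of small differences turned in Tarbp2 (log2 fold change 0.017 with array B alone, and between −0.049 and 0.037 with each sample left out), in Dgcr8 (between −0.039, without moR-21 1, and 0.14) and in Eif2c3 (between −0.0042, without moR-21 2, and 0.051). The cause was not tested. Across the alternatives Dicer1 had limma adjusted p between 0.00201 and 0.0863, and Prkra between 0.00608 and 0.147. Median scaling and no filter took Prkra past 0.05, to limma adjusted p of 0.102 and 0.0938.

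Samples of the same number deviated together at most weakly (Pearson r of deviations 0.19, 0.04 and 0.06 for numbers 1 to 3). Samples of differing numbers had r between −0.13 and 0.07. The numbers were not taken as pairs in the main fit. With the replicate number as a block 0 of the 8 genes and 1 pathway gene were called, 681 of all genes in place of 678, and no named call changed. The limma adjusted p was then 0.00993 for Dicer1 and 0.0116 for Prkra. All Argonaute probes lay near background, which limits what these arrays measured of them.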
